A study of Gallus gallus with 8 samples.

Results

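The regions described here are the m6A peaks of broiler liver that the deposited annotation places in exon 1 of a transcript with at least 2 exons. They number 384 of the 5938 distinct peaks called in LPS liver and 504 of the 7813 called in control liver. The annotation keeps 5′ UTR and 3′ UTR as labels of their own, so a peak counted here lies in a first exon and was not labelled as UTR. Peaks of single-exon transcripts were left out.

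N6-methyladenosine (m6A) is a methyl mark placed on adenosines inside messenger RNA by a nuclear methyltransferase complex while the RNA is being made. Demethylases can remove it, and reader proteins of the YTH family bind it and steer the transcript to decay, translation or export. In vertebrate mRNA the mark is best known from long internal exons, the region around the stop codon and the 3′ UTR, and marks near the 5′ end form a smaller class.

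The LPS group was 21-day-old broilers injected intraperitoneally with 1 mg/kg lipopolysaccharide of Escherichia coli 055:B5, the bacterial outer membrane component that sets off innate immune signalling. The control group was broilers of the same age given phosphate-buffered saline, and in both groups the liver was taken 2 h after injection. Polyadenylated liver RNA was broken to about 100 nt; one portion was sequenced directly (input) and another after capture with an anti-m6A antibody (IP). There were 8 libraries in 4 groups of 2: LPS input, LPS IP, control input and control IP. No label ties the paired libraries to different birds, so p-values measure the spread between these libraries, which may be technical. The comparison asks where the mark sits in liver mRNA after LPS and without it.

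Peaks were deposited as 1 list per treatment, so peak values have no replicate spread and were compared without a test. Gene levels came from the 4 input libraries as FPKM, and their absolute depth is unknown. Low values gave depths of 0.818 and 0.891 for the LPS libraries and 0.858 for control library 2, relative to control library 1. Each depth is the most common ratio among low values, found in only 12, 12 and 10 genes, so it is a rough guide. Gene levels had a Spearman correlation of 0.978 between the LPS libraries, 0.976 between the control libraries and at most 0.922 between treatments. The 11 hepatocyte markers summed to 76247 and 76883 FPKM in the LPS libraries, against 66552 and 63056 FPKM in the control libraries; 1 of them had a mean under 1 FPKM and none was listed at 0 in all libraries. By the limma test given below, 3 of the 10 tested hepatocyte markers rose and 2 fell. Among markers of other cells, 5 bile duct genes summed to 584.5 and 806.7 FPKM in LPS libraries against 81.8 and 171.2 FPKM in control libraries. The members did not move together: of the 4 tested, 2 rose and 1 fell. For 7 macrophage genes the sums were 803.2 and 743.7 FPKM in LPS libraries and 1049 and 1212 FPKM in control libraries, and 6 of the 7 fell. By the same test 10.7% of all tested genes rose and 31.4% fell. With libraries scaled to equal medians these shares were 14.2% and 15.9%. In bulk liver, fewer cells of a type and less RNA per cell cannot be told apart, and the part of cell composition in the results below was not tested.

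First-exon peaks made up 6.47% of the LPS list (95% exact binomial interval 5.85 to 7.12%) and 6.45% of the control list (5.92 to 7.02%), so the shares lay within each other's interval, which covers counting error only. In the LPS list 421 peaks were labelled 5′ UTR, 1846 internal exon, 625 last exon of a transcript, 2505 3′ UTR and 157 single exon. The control list held 599 in 5′ UTRs, 2245 in internal exons, 718 in last exons, 3531 in 3′ UTRs and 216 in single exons. Peaks with the first-exon label were thus a minor class in both lists, and 3′ UTRs held 42.2% of LPS and 45.2% of control peaks. Peaks labelled 5′ UTR or single exon can lie in a first exon too, so the labels do not give the share of all peaks in first exons.

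The peaks were spread over many transcripts. The 384 LPS peaks lay on 347 host genes and the 504 control peaks on 450, on 31 chromosomes or linkage groups in each list. The host transcript had a median of 6 exons and at most 41 in both lists, and 57 LPS and 69 control peaks lay on transcripts of 2 exons. Median peak size, counted over exon blocks, was 234 bases in LPS liver and 239 bases in control liver. The peak ran across a splice junction into later exons in 50% of LPS and 50.8% of control peaks, so a first-exon label does not confine a peak to that exon. Such splitting was seen in 61.8% of LPS and 61.1% of control peaks labelled internal exon.

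The 5′ edge of the peaks lay close to the annotated start of the transcript. Among the 370 LPS peaks whose position columns describe the annotated transcript, the edge lay a median of 148 bases from the start (interquartile range 30 to 463.5). Among 486 such control peaks the median was 119 bases (29 to 418). The edge fell within 50 bases of the start for 113 LPS peaks (30.5%) and 171 control peaks (35.2%), and exactly on it for 74 (20%) and 119 (24.5%). Peaks labelled 5′ UTR lay closer, with a median of 0 bases in both lists. Their edge was exactly on the start for 43.9% in LPS and 48.4% in control liver. That label names no transcript, so all 421 LPS and 599 control 5′ UTR peaks were used without the position check. Peaks near the start can carry the 5′ UTR label in place of first exon, so the labels themselves bear on this order. A tail reached far into long first exons: 34 LPS and 43 control peaks began over 1000 bases from the start, the farthest at 5198 bases in each list. The peak calls often moved in steps: 149 LPS (40.3%) and 238 control distances (49%) were exact multiples of 30. These include the 74 LPS and 119 control edges exactly on the start. The annotated start is that of the deposited gene models and was not measured here.

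**Figure D1:**
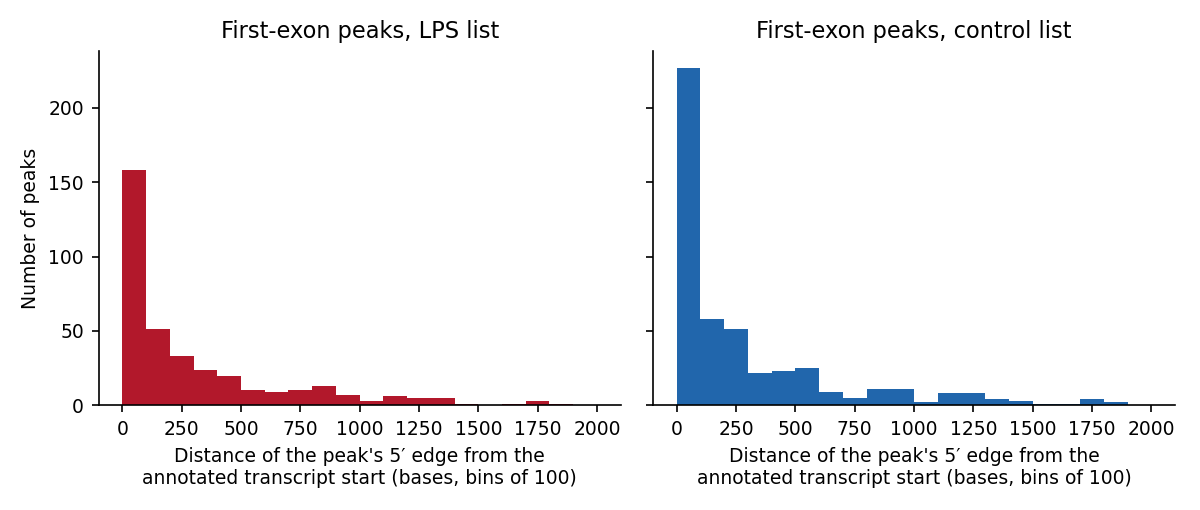
Number of first-exon peaks (y axis) by distance in bases of the peak's 5′ edge from the annotated transcript start (x axis, bins of 100 bases), for the LPS list (left) and the control list (right). The first bin holds 158 LPS and 227 control peaks; 9 LPS and 10 control peaks beyond 2000 bases and 1 in each list before the start are not drawn.

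Fold enrichment, the deposited ratio of IP over input for a peak, had a median of 5.31 (interquartile range 3.19 to 11.4) for the LPS first-exon peaks and 5.65 (3.20 to 11.3) for the control ones. In both lists this lay above the median of internal exons (4.04 in LPS, 4.31 in control) and under that of 5′ UTRs (6.56 in LPS, 6.62 in control). The medians of 3′ UTR peaks were 5.53 in LPS and 6.30 in control liver. A fold of at least 20 was reached by 54 LPS first-exon peaks (14.1%) and 73 control ones (14.5%), beside 9.92% and 11.7% of all peaks of each list. The LPS and control shares were 16.2% and 16.0% for 5′ UTRs, 12.3% and 14.4% for 3′ UTRs, and 5.31% and 6.06% for internal exons. With 1 list per treatment these are descriptions of the lists.

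**Figure D2:**
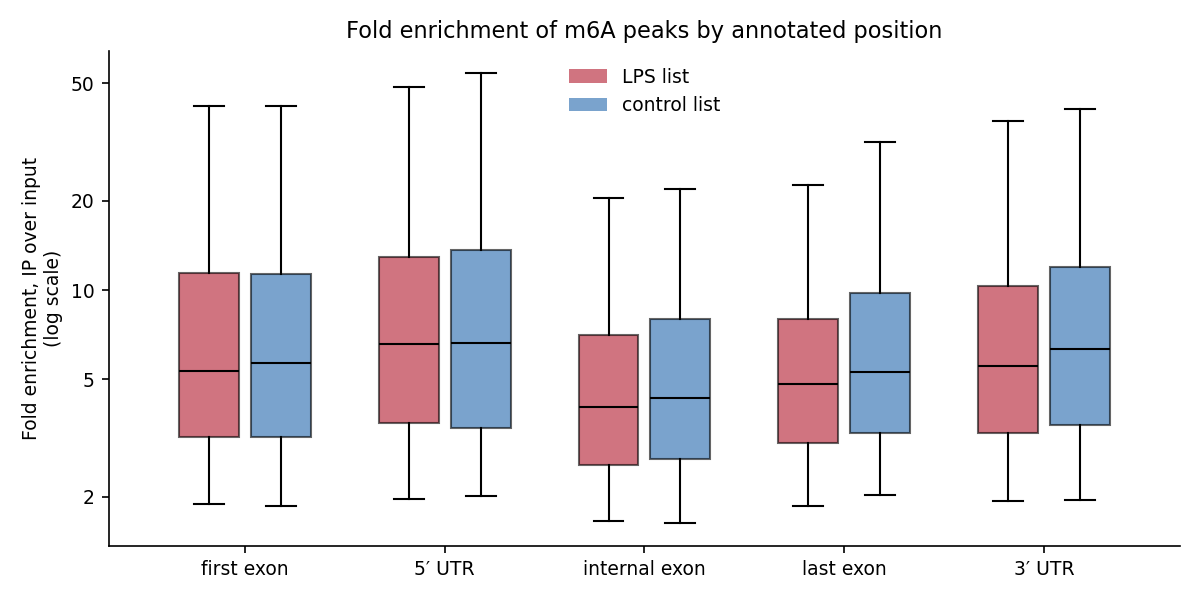
Fold enrichment of IP over input (y axis, log scale) of peaks by annotated position (x axis), LPS list in red and control list in blue. Boxes span the interquartile range with the median as a line, and whiskers the 5th to 95th percentiles; first-exon boxes (medians 5.31 in LPS, 5.65 in control) sit between those of 5′ UTRs and internal exons.

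Fold enrichment was lower on abundant hosts. When peaks were divided into 4 groups of near-equal size by host level, the LPS group of highest level (32.3 to 1640 FPKM in LPS liver, 96 peaks) had a median fold of 3.10, against 6.32, 6.56 and 5.61 in the other LPS groups, from the lowest up. The control list gave 3.10 in its highest group (36.2 to 2782 FPKM in control liver, 126 peaks) and 6.32, 6.43 and 6.83 in the others.

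The strongest first-exon peaks of the LPS list were on ENSGALG00000029025, LMOD1, ENSGALG00000026541 and MSC. ENSGALG00000029025, which has no symbol in the files and no expression value, carried peaks of 236-fold and 199-fold that overlap on chromosome 25, with a control partner of 122-fold. LMOD1, an actin nucleator of smooth muscle, had 164-fold in LPS and 124-fold in control liver at chr26:1105719-1112897 of the LPS list (the genome build is not given in the sources used here), although its level was only 1.06 and 2.05 FPKM in LPS and 1.69 and 3.89 FPKM in control libraries. The strongest control peaks were on ENSGALG00000026541 (376-fold), BAHCC1, a chromatin protein with a BAH domain (201-fold), ENSGALG00000001009 (189-fold), SREBP-1 (134-fold) and LMOD1. ENSGALG00000026541 had a peak of 161-fold in LPS liver. Its level was 0.130 and 0.185 FPKM in LPS libraries, against 26.9 and 32.4 FPKM in control libraries. On hosts averaging under 1 FPKM, first-exon peaks had a median fold of 16.2 in LPS (7 peaks) and 15.6 in control liver (15 peaks). Fold is a ratio over input, and the part of low input in these high folds was not tested.

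Some hosts carried more than 1 first-exon peak, 29 in the LPS list and 41 in the control list. Not all peaks of a list were separate: 2 LPS pairs and 1 control pair of first-exon peaks overlapped. LRRC8A, the obligate subunit of the volume-regulated anion channel, had 4 peaks in its exon 1 of 2 in each list. From the 5′ end their folds were 9.38, 5.99, 1.97 and 3.46 in LPS liver and 12.7, 4.73, 2.02 and 5.21 in control liver, so the first peak was the highest in both. IRS4, an insulin receptor substrate, had 4 in LPS liver and none in control liver. PCDH12, a protocadherin of endothelium, had 4 control peaks of 19.8, 4.69, 3.93 and 4.95 with edges 1162 to 2652 bases from the start, and no LPS first-exon peak. PCDH12 itself fell, with 1.83 and 1.36 FPKM in LPS and 4.03 and 6.08 FPKM in control libraries (adjusted p = 0.0069, limma; 0.023 at equal medians). Of 8 endothelial markers 4 fell, beside 31.4% of all tested genes. The marker sums were 69.2 and 53.1 FPKM in LPS and 110.0 and 92.6 FPKM in control libraries. The part of these markers in this result was not tested. PCDHGC3, another protocadherin, had 2 LPS peaks (7.50 and 3.41) and 5 control peaks (3.28 to 9.07). TSC22D2, a leucine zipper protein, had 3 LPS peaks (4.33 to 7.82) and 4 control peaks (2.11 to 15.4). AKAP1, which anchors protein kinase A to mitochondria, had 3 peaks in each list.

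Many hosts carried the mark elsewhere too. Of the 347 LPS hosts, 183 (52.7%) had at least 1 peak in another position, 101 of them in the 3′ UTR and 85 in an internal exon. Of the 450 control hosts, 258 (57.3%) did, 157 in the 3′ UTR and 111 in an internal exon. A peak labelled 5′ UTR stood beside a first-exon peak on 5 LPS and 7 control hosts. Each peak carries 1 label, so this count depends on where the gene models place 5′ UTRs. Among hosts with both kinds, the highest fold was in the first exon for 91 of 183 LPS hosts and 111 of 258 control hosts. No peak of another label lay on 164 LPS and 192 control hosts, although their first-exon peaks can run into later exons.

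A peak was counted as found in both lists where its exon blocks shared at least 1 base with a peak of the other list on the same strand. By that measure 326 of 384 LPS peaks (84.9%) had a control counterpart and 307 of 504 control peaks (60.9%) had an LPS counterpart. The same shares over all peaks were 87.6% of LPS and 64.1% of control peaks, so first-exon peaks were found in both lists about as often as the rest. For 275 of the 326 LPS peaks the counterpart was itself labelled first exon, for 26 it was labelled 5′ UTR and for 18 internal exon. Peaks with a counterpart had higher folds than those without: medians were 5.81 against 3.42 in the LPS list and 7.37 against 3.66 in the control list. This was general: over all peaks the medians were 5.38 against 2.925 in the LPS list and 6.86 against 3.93 in the control list.

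Whether a peak was found in both lists went with the change of its host gene. Of LPS peaks, 34 of 69 (49.3%) on genes that rose after LPS had a control counterpart, against 178 of 197 (90.4%) on genes without a call and 107 of 109 (98.2%) on genes that fell. Control peaks ran the other way: 37 of 43 (86.0%) on genes that rose, 164 of 243 (67.5%) without a call and 100 of 201 (49.8%) on genes that fell had an LPS counterpart. Over all peaks the LPS shares were 68.2%, 89.6% and 96.8%, and the control shares 91.1%, 70.2% and 51.5%, in the same order. With libraries scaled to equal medians the first-exon shares were 53.8%, 92.3% and 98.0% in the LPS list and 81.5%, 65.3% and 41.8% in the control list. Hosts of LPS peaks without a counterpart had a median of 14.5 FPKM in LPS liver and 6.03 FPKM in control liver, and hosts of control peaks without one had 5.48 FPKM in LPS and 10.6 FPKM in control liver. Gene levels and peaks come from the same input libraries, and the part of host level in finding a peak was not tested.

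**Figure D3:**
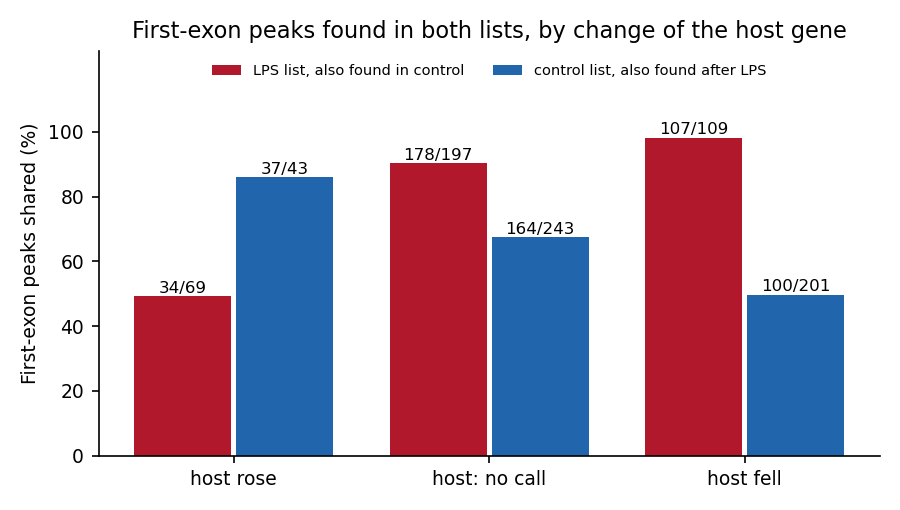
Percentage of first-exon peaks that overlap a peak of the other list (y axis), by the limma call of the host gene (x axis), with LPS peaks in red and control peaks in blue; numbers over the bars are shared peaks over all peaks of that class. LPS peaks were least often shared on genes that rose (34/69), control peaks on genes that fell (100/201).

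Hosts with a first-exon peak in only 1 list often had a peak of another label in the other, which could overlap the first-exon peak. There were 252 hosts with a first-exon peak in both lists, 72.6% of LPS hosts and 56% of control hosts. Of the 95 hosts in the LPS list only, 64 had some peak in the control list and 31 had none. Of the 198 hosts in the control list only, 98 had some peak in the LPS list and 100 had none. Among 52 hosts of LPS first-exon peaks without an overlapping counterpart, 21 had any peak in the control list. Among 184 such hosts of control peaks, 84 had any peak in the LPS list. Over all labels, the LPS list had peaks on 3991 genes and the control list on 5045. How many of those genes were in both lists was not counted. The host counts therefore do not show a difference between first-exon hosts and other genes with peaks.

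Of first-exon peaks without a counterpart, the highest LPS folds were on MSC, a basic helix-loop-helix repressor (118-fold, chr2:116917691-116917900), and on FLVCR1, a membrane transporter (63.8-fold, chr3:21122284-21122373). MSC was at 4.49 and 6.01 FPKM in LPS libraries and 0.919 and 0.767 FPKM in control libraries. FLVCR1 was at 6.70 and 5.97 FPKM in LPS libraries and 1.61 and 1.59 FPKM in control libraries. Both genes rose, as did the hosts of the next 3 such peaks: ENSGALG00000007997 (23.2-fold), NUDT8, a nudix hydrolase (10.3-fold), and MUC4, a membrane mucin (9.88-fold). Of all 58 LPS first-exon peaks without a counterpart, 35 lay on genes that rose.

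In the control list, FAM20C, a kinase of the secretory pathway, had a peak of 48.5-fold without a counterpart (chr14:1725518-1725725). Its levels were 25.6 and 28.5 FPKM in LPS and 42.6 and 34.5 FPKM in control libraries, without a call, so this peak was absent from the LPS list although the transcript was measured there. A peak of 73.3-fold annotated to ENSGALG00000029025 is assigned to NES on the other strand in the same row. Overlap was taken on the NES strand, so a counterpart on the strand of ENSGALG00000029025 would not have been counted. Others of high fold were a second BAHCC1 peak (34.8-fold) and a peak on TMEM200B (24.7-fold), whose levels were at most 0.731 FPKM.

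Paired peaks could be compared for height. Joining each LPS first-exon peak to the control peak of largest overlap, with every peak used at most once, gave 320 pairs. Fold was higher in LPS liver in 115, higher in control liver in 204 and equal in 1. The median LPS minus control difference was -0.22 on the log2 scale (interquartile range -0.68 to 0.16), and over all 4950 paired peaks of the lists it was -0.25. Relative to that general shift the first-exon median was 0.03. Control partners were longer in 221 pairs, LPS partners in 60. Across the 320 pairs the log2 folds had a Pearson correlation of 0.89, a description over peaks that share libraries and transcripts.

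A change beyond 2-fold was seen in 5 of the 320 pairs higher in LPS and 45 higher in control liver. Over all 4950 paired peaks of the lists the counts were 104 and 603, so the lean toward control was general. Those higher in LPS included EME1, a subunit of a DNA endonuclease (34.3 in LPS, 8.12 in control), ADCY5, an adenylate cyclase (40.7 and 16.0), SUPT6H, an elongation factor (35.3 and 15.1), and RERE, a nuclear corepressor (17.1 and 8.33). EME1 was at 0.494 and 0.883 FPKM in LPS libraries and 1.14 and 1.83 FPKM in control libraries. ADCY5 rose, with 8.98 and 10.6 FPKM in LPS libraries and 1.45 and 1.19 FPKM in control libraries.

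The largest differences toward control were on CAP1, a regulator of actin turnover (7.78 in LPS, 65.0 in control), and SCRN2, a secernin (4.96 and 30.2). The CAP1 peaks had the same 61 bases in both lists (chr23:5502134-5502194), and its level had no call, at 37.8 and 38.4 FPKM in LPS libraries and 45.3 and 53.3 FPKM in control libraries. SREBP-1, the transcription factor that drives fatty acid synthesis genes, had a peak at the 5′ end of its exon 1 of 18 with 23.8-fold in LPS liver (chr14:4908755-4909023) and 134-fold in control liver (chr14:4908695-4909023). BAHCC1 had 48.6 in LPS and 201 in control liver; its level fell to 4.66 and 5.30 FPKM in LPS libraries, against 8.52 and 8.51 FPKM in control libraries (adjusted p = 0.024, limma; 0.163 at equal medians). For MCL1, an anti-apoptotic BCL2 family member, the LPS peak (2.73) was paired with a control peak labelled 3′ UTR (14.5), with 269 bases in LPS and 776 in control liver.

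**Figure D4:**
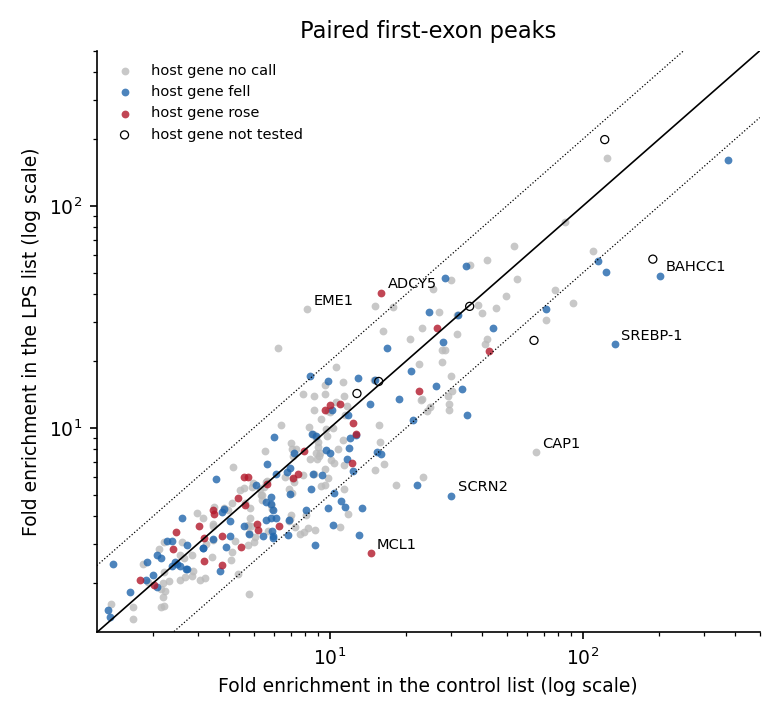
Fold enrichment of the 320 paired first-exon peaks in the LPS list (y axis, log scale) against their control partners (x axis, log scale), coloured by the limma call of the host gene. The solid line marks equal folds and the dotted lines a 2-fold difference; 204 pairs lie under the solid line and 115 above it.

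Host genes were measured in the input libraries. Of the 545 genes in either list, 544 had FPKM values and 528 passed the minimum mean of 1 FPKM over the 4 libraries, while 16 did not. By limma on log2(FPKM + 1), at a Benjamini-Hochberg adjusted p under 0.05 over all 9484 tested genes, 70 hosts rose, 198 fell and 260 had no call. Of all tested genes, 42.1% were called, 10.7% as rises and 31.4% as falls, against 13.3% and 37.5% of the hosts. The median log2 change was -0.39 for hosts and -0.34 for all genes. With libraries scaled to equal medians, which moved the median of all genes to -0.06, 82 hosts rose and 105 fell, against 14.2% rises and 15.9% falls among all genes.

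The calls were counted by the list that held the peak. Of 93 tested hosts in the LPS list only, 32 rose and 20 fell; of 247 in both lists, 25 rose and 79 fell; of 188 in the control list only, 13 rose and 99 fell. At equal medians these counts were 34 and 9, 32 and 36, and 16 and 60. Hosts were sorted here by peaks called against the same input libraries, so the counts describe the lists and are no independent test.

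Among hosts with a gene symbol, the largest rise was that of TNIP2; ENSGALG00000007997, which has none, rose more (log2 change 5.77 ± 0.18). TNIP2, a partner of the NF-kB inhibitor A20, had 96.7 and 113.7 FPKM in LPS libraries, against 2.87 and 2.38 FPKM in control libraries. Its log2 change was 4.87 ± 0.19 (SE; adjusted p = 6.8e-06, limma), and its first exon held LPS peaks of 3.39 and 3.63. SLC46A2, a solute carrier, had 38.8 and 54.0 FPKM in LPS and 0.650 and 0.817 FPKM in control libraries. MLKL, the pseudokinase that executes necroptosis, had 35.3 and 34.0 FPKM in LPS and 0.543 and 0.533 FPKM in control libraries, and TIFA, an adaptor of TRAF signalling, 36.1 and 40.9 FPKM in LPS and 1.87 and 1.17 FPKM in control libraries.

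The other named rises were those of FAM150B, a ligand of the receptor tyrosine kinase ALK (log2 change 4.23 ± 0.21), IRS4 (3.34 ± 0.21), the zinc finger repressor ZBTB16 (3.29 ± 0.22), the interferon-induced EPSTI1 (3.02 ± 0.29), PROSER2 (3.00 ± 0.29) and FOXO3, a forkhead factor restrained by insulin signalling (2.82 ± 0.24). All 9 apart from PROSER2 had first-exon peaks in the LPS list only, with folds of 1.55 (FAM150B) to 6.13 (IRS4), and no overlapping control peak. Of all 70 hosts that rose, 32 had a first-exon peak in the LPS list only, as did 93 of the 528 tested hosts. These genes became hosts through their LPS peaks and were chosen by their rise, so being in that list only is no separate result. PROSER2 had an LPS peak of 12.8 over 1045 bases and a control first-exon peak of 2.83 over 120 bases. The first-exon peaks of ZBTB16 are assigned to UBE4A in the same rows, so which of these overlapping genes carries them is uncertain.

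SREBP-1 and CDK18 were among the 10 largest falls of hosts with a symbol; ENSGALG00000026541, which has none, fell by 4.72 on the log2 scale. SREBP-1 had 18.7 and 21.3 FPKM in LPS and 173.2 and 164.4 FPKM in control libraries, a log2 change of -3.02 ± 0.17 (SE; adjusted p = 2.49e-05, limma), and its first-exon peak was also among those with the largest fold difference toward control. CDK18, a cyclin-dependent kinase, had 0.390 and 0.580 FPKM in LPS and 34.1 and 39.2 FPKM in control libraries.

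Further falls were those of PLK2, a polo-like kinase (log2 change -3.08 ± 0.20), TMCC2 (-2.79 ± 0.19), the cyclin-dependent kinase inhibitor CDKN2B (-2.79 ± 0.21), the endocytic adaptor EPN3 (-2.77 ± 0.19), the zinc finger factor KLF10 (-2.67 ± 0.22), the ethanolamine kinase ETNK2 (-2.63 ± 0.18) and CDC42EP1, an effector of the GTPase CDC42 (-2.53 ± 0.26). Of these, CDK18, PLK2, TMCC2, CDKN2B and KLF10 had a first-exon peak in the control list only, and no LPS peak overlapped any of these. Of all 198 hosts that fell, 99 had a first-exon peak in the control list only, as did 188 of the 528 tested hosts. These genes became hosts through their control peaks and were chosen by their fall, so being in that list only is no separate result. SREBP-1, ETNK2 and CDC42EP1 kept a first-exon peak in LPS liver with a lower fold: 23.8 against 134, 3.25 against 5.98 and 15.0 against 33.2 in control liver. EPN3 had its LPS peak (5.02) in the first exon and its control partner (6.94) labelled 5′ UTR. The plot of host levels shows these genes by library.

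**Figure D5:**
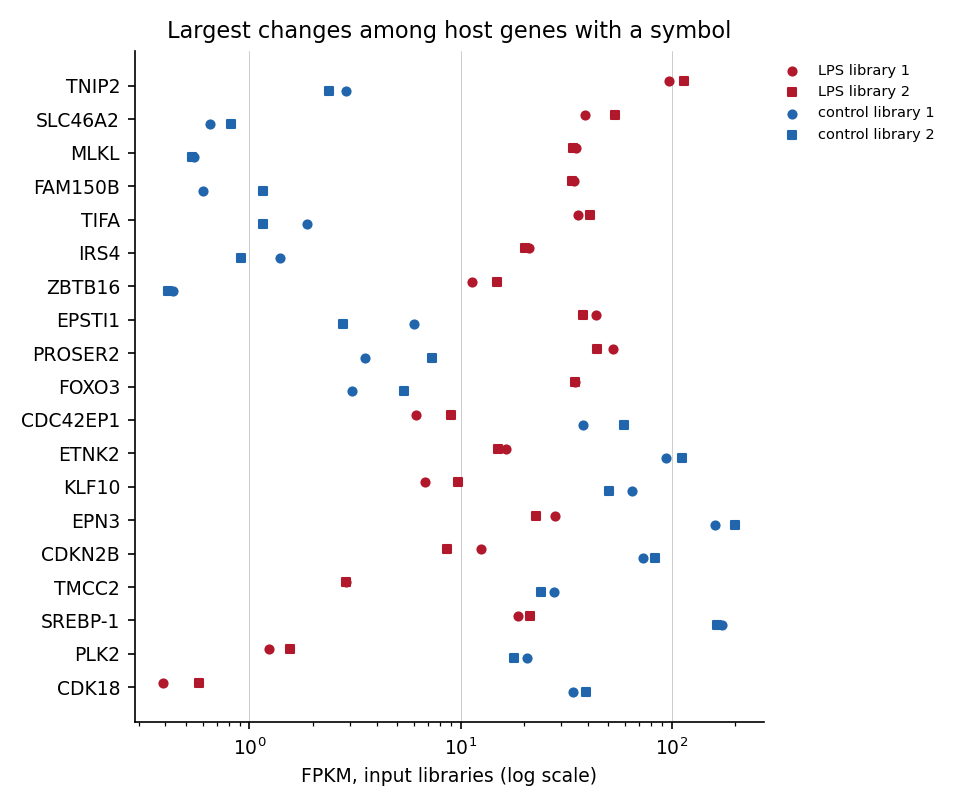
FPKM of the 10 largest rises and 9 of the 10 largest falls among host genes of first-exon peaks that have a symbol and whose groups do not overlap (a condition of the choice), in each input library (x axis, log scale), LPS libraries in red and control libraries in blue, circles for library 1 and squares for library 2. TNIP2 is the highest of the rises in LPS libraries, at 96.7 and 113.7 FPKM.

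Over all 13427 genes with FPKM values, 544 hosted a first-exon peak, the share to set beside the host counts of the gene lists below. Among 20 genes of the m6A machinery found in the files, 2 carried first-exon peaks. YTHDF2, the reader that recruits decay factors to marked mRNA, had 2 peaks in its exon 1 of 3 in each list, with folds of 5.51 and 11.9 in LPS liver and 9.56 and 24.2 in control liver, from the 5′ end. Its level had no call, at 15.4 and 15.7 FPKM in LPS libraries and 15.5 and 17.9 FPKM in control libraries. The demethylase ALKBH5 had an LPS peak of 6.20, whose control partner (8.55) was labelled 5′ UTR. ALKBH5 fell, with 25.1 and 17.4 FPKM in LPS libraries and 32.9 and 38.4 FPKM in control libraries (log2 change -0.74 ± 0.22, adjusted p = 0.029, limma); at equal medians its adjusted p was 0.147. Across the 19 tested genes of the list, 1 rose and 5 fell (median log2 change -0.09), and at equal medians 2 rose and 0 fell. ADAR, which edits adenosine to inosine in RNA and is outside that list, had 2 first-exon peaks in each list, the stronger at the transcript start with 14.7-fold in LPS and 22.6-fold in control liver.

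Of 46 genes of NF-kB, Toll-like receptor and cytokine feedback signalling, 23 of 44 tested rose and 5 fell (median log2 change 0.78), and 3 hosted first-exon peaks. TNIP2 and the TNF-induced TNFAIP2 (peak of 2.01) rose and had first-exon peaks in the LPS list only, and SOCS2, a suppressor of cytokine signalling, fell and had a control peak of 3.72 only. Of 40 immediate early and stress regulators, 14 of 38 tested rose and 10 fell (median log2 change 0.09), and 5 were hosts. FOSL2, an AP-1 subunit, rose to 14.1 and 13.2 FPKM in LPS libraries, against 0.775 and 1.81 FPKM in control libraries, and had an LPS peak of 4.57. The kinase SIK1 rose and had an LPS peak, KLF10 and ID2 fell and had control peaks, and KLF2 had no call and a peak in both lists (4.61 in LPS, 4.10 in control).

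Of 45 tested lipid and sterol synthesis genes and regulators 37 fell and 5 rose (median log2 change -2.25), and 3 hosted first-exon peaks. These included SREBP-1 and SREBF2, the sterol-sensing counterpart of SREBP-1, with 2.63-fold in LPS and 3.43-fold in control liver and no call. Of 44 insulin, growth factor and kinase signalling genes, 7 of 40 tested rose and 18 fell (median log2 change -0.33), or 10 and 12 at equal medians. Its 5 hosts were IRS4 and FOXO3, which rose, and IRS1, TSC22D1 and TSC22D2, which fell, although at equal medians the adjusted p was 0.054 for IRS1 and 0.062 for TSC22D2. IRS1, the main insulin receptor substrate of many tissues, had a peak of 4.35 in LPS and 13.4 in control liver and levels of 6.76 and 5.89 FPKM in LPS and 11.1 and 14.8 FPKM in control libraries. The strongest TSC22D1 peak was 4.40 in LPS and 11.5 in control liver.

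Several regulators of transcription carried a first-exon peak in both lists. Of 138 genes with zinc finger or BTB symbols 14 were hosts, 11 of them in both lists, and 11 of the 14 had no expression call. Over all hosts, 252 of 545 were in both lists, and 260 of the 528 tested had no call. Of the 107 tested in the zinc finger and BTB group, 6 rose and 25 fell (median log2 change -0.25), or 11 and 17 at equal medians. The strongest hosts of the group were ZNF746 (46.5 in LPS, 30.1 in control), ZC3H18 (35.8 and 38.5) and ZNF609 (33.0 and 39.8). Among 50 chromatin regulators the hosts were BPTF, a subunit of the NURF remodeller (39.4 in LPS, 49.6 in control), the DNA methyltransferase DNMT3A (9.15 and 6.02) and the coactivator NCOA1 (control only, 2.58). DNMT3A and NCOA1 fell, while BPTF had no call; of the 46 tested, 4 rose and 12 fell (median log2 change -0.30), or 5 and 5 at equal medians. Of 34 liver transcription factors and nuclear receptors 6 were hosts, among them the homeobox factor PROX1 (5.01 in LPS, 5.41 in control), NR2F2 (3.63 and 4.90) and the glucocorticoid receptor NR3C1, with a control peak of 5.39 only and no call. XBP1, a factor of the unfolded protein response, rose and had a peak in both lists (2.84 in LPS, 2.40 in control). Of the 28 tested, 5 rose and 10 fell (median log2 change -0.19), or 6 and 9 at equal medians.

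In the remaining symbol groups, 1.28% (small GTPases) to 5.06% (homeobox, forkhead and SOX) of genes were hosts. Over all genes with FPKM values 544 of 13427 were. Of 266 ubiquitin ligase and deubiquitinase genes 10 were hosts, of which 5 fell (3 at equal medians) and 0 rose by limma. Of the 223 tested in this group, 27 rose and 59 fell, or 37 and 26 at equal medians. RNF215 was the strongest host (22.9 in LPS, 16.9 in control). Of 235 small GTPase genes and regulators 3 were hosts, all with a first-exon peak in the control list only: RASSF7 (33.2), ARHGEF17 (9.55) and RAB44 (3.50). Over all hosts, 198 of 545 had a first-exon peak in the control list only. Of 222 genes with solute carrier symbols 5 were hosts, of which SLC9A3R1 and Slc9a3r2 are scaffold proteins of a carrier and not carriers. Of 209 kinase and phosphatase symbols 8 were hosts, led by CDK12, a kinase of elongating RNA polymerase (19.9 in LPS, 27.8 in control). This group was matched by symbol prefix, so its hosts include genes that are not kinases or phosphatases, such as the inhibitor CDKN2B. Of 79 homeobox, forkhead and SOX symbols 4 were hosts: HOXB4 (control only, 12.4), which fell, FOXO3, FOXN2 and FOXRED1, the last being an oxidoreductase.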

How the data were processed

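Livers of 21-day-old broilers were compared 2 h after LPS or buffer, with libraries grouped by their labelled treatment and kind; columns marked as treated were taken as LPS. ChIPseeker, HISAT2, HOMER and StringTie are named, with no role or version, per the submitters' processing notes. Which genome build and peak caller were used is not given in the sources used here. FPKM were deposited by the authors for 13427 genes, in 1 column per input library. For each treatment the authors deposited 1 peak list giving each peak's fold (IP over input, a ratio), a p-value and its log10, which can round the p-value to 0. Exact repeats (1 in each list) were dropped. FPKM are not counts, so depth limits could not be computed.

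The host gene is the one in the annotation text. In 12 LPS and 15 control peaks the row's gene columns name another gene. Distances from the start were taken only where both name the same transcript, a check that UTR labels do not allow. The strand used for overlap is that of the gene columns, so in these peaks it can be the strand of the other gene. Peaks were compared by overlap of exon blocks (at least 1 base, same strand) in Python 3.11.15 (pandas 2.3.3, numpy 2.4.6, scipy 1.17.1, figures with matplotlib 3.10.9). Expression was tested with limma 3.58.1 in R 4.3.3 on log2(FPKM + 1), LPS against control with 2 libraries each, two-sided, for the 9484 genes averaging 1 FPKM or more. That scale understates the change of low genes. Both steps were tested on simulated data. Alternatives were another pseudocount, no filter, scaling to equal medians, the replicate number as a block, leaving out each library, and other overlap rules.

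The members and the 13 gene lists were chosen with earlier results of these data known. Named were the 5 peaks of highest fold in each list, with and without a counterpart, the 5 largest paired differences each way, the 10 largest called changes each way among hosts with a symbol and groups that do not overlap, up to 3 hosts of each list, and hosts with several peaks; a few items this rule selects are not reported here. Other named hosts of the lists (ID2, SIK1, XBP1, Slc9a3r2 and FOXRED1) were chosen after their values were seen. No genome was used, so no sequences are given.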

Additional observations from a re-analysis of the deposited data

How the results depend on the processing

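With libraries scaled to equal medians, 105 hosts of first-exon peaks fell in place of 198, and 1508 of all tested genes in place of 2982; 82 hosts and 1349 genes rose. Leaving out each library in turn gave 56 to 63 hosts that rose and 138 to 176 that fell, and 838 to 923 rises and 2097 to 2494 falls over all genes. The 20 largest changes of hosts with a symbol (10 each way) kept their call under each of the 8 alternatives. With the replicate block, 74 hosts rose and 209 fell, over all genes 1071 and 3150. Deviations of same-numbered libraries from the group means correlated at 0.03 (Pearson, across genes). With 2 libraries per group, this value cannot show whether same-numbered libraries were prepared together, and no label tells. A pseudocount of 0.1 FPKM gave 68 and 197 hosts, beside 1001 and 2936 of all 9484 genes. No filter on low values gave 61 and 167 of 544 hosts, beside 977 and 2714 of 13427 genes.

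Counting only peaks with a fold of at least 4 left 217 shared LPS peaks of 241 (90.0%) and 234 of 322 control peaks (72.7%). Requiring a first-exon counterpart gave 276 and 271 shared peaks. Ignoring strand, an alternative chosen after seeing the data, gave 328 and 308. Counting single-exon transcripts as first exons raised the share to 9.11% of the LPS list and 9.22% of the control list. Centring on all paired peaks turned the median paired difference to 0.031 on the log2 scale.

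The 1 list per treatment and the 2 libraries per group limit precision, and read depth behind each peak is unknown, so absence from a list is not shown to be absence of the mark.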
